A study of Homo sapiens with 12 samples.

Results

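Interferon-stimulated genes are the genes whose transcription interferon switches on in the cells it reaches, and 39 of them were examined here by RNA-seq in prostate cancer cells treated with pentamidine. The members were chosen by name, as established interferon-stimulated genes, and all 39 were found among the 32077 genes of the count table. The question they address is whether damage to mitochondrial nucleic acid goes with an interferon signature. Pentamidine is an aromatic diamidine, used against protozoan and fungal infections, that binds DNA. The cells were PC3 and DU145, established human prostate cancer lines that grow without androgen, both labelled wild type. Each line was cultured for 48 h with vehicle or with 2.5 uM pentamidine, which gave 4 groups of 3 samples and 12 in all. The vehicle was sterile distilled water according to the study's methods. The captions of the study speak of 3 or more independent experiments without saying whether the RNA-seq is meant, and the labels do not say whether the replicates were separate cultures, so that a p-value here measures the spread between these samples only. The vehicle-treated PC3 replicates stood further apart than those of the other groups. The mean chi-square per gene between 2 replicates was 3.64 to 7.30 there and 1.72 to 3.13 in the other groups.

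Polyadenylated RNA was selected and sequenced, and the authors deposited the number of reads on each gene. Total counts were 14610424, 15131436 and 13514195 in vehicle-treated PC3 replicates 1, 2 and 3 and 14717776, 14086950 and 14791260 in pentamidine-treated PC3 replicates. They were 13798818, 14670705 and 14906017 in vehicle-treated DU145 replicates and 13891795, 14576040 and 14190864 in pentamidine-treated DU145 replicates. At this depth 3 counts correspond to 0.198 to 0.222 counts scaled to the library total (CPM), and a level no higher than 3 counts throughout a comparison was treated as undetected, a limit that covers counting error only. Levels are given as CPM after TMM normalization, a scaling that removes differences in composition between libraries, and as mean ± SD of 3 samples where a mean is printed. Differences are log2 fold changes with their standard error from edgeR's quasi-likelihood test, with p-values adjusted by Benjamini-Hochberg over all genes tested. A gene was called at an adjusted p below 0.05, and the study's own threshold asked in addition for a log2 fold change above 1 or below -1. In bulk RNA, fewer cells that express a gene and less of its RNA per cell cannot be told apart.

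Cells make type I interferon when sensors such as RIG-I, MDA5 or cGAS meet RNA or DNA where it does not belong, and nucleic acid released from mitochondria is a known trigger. Secreted interferon binds its receptor, the kinases JAK1 and TYK2 are activated, and STAT2 is phosphorylated and joins IRF9 in a complex that binds the interferon-stimulated response element (ISRE) in the promoters of its target genes. The products of these genes sense viral RNA, degrade it, block its translation or feed back on the pathway, and many carcinoma lines keep part of the program at a low level without added interferon.

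The marker genes gave a mixed picture. CDH2, which encodes N-cadherin, had 732 to 945 counts in the PC3 samples and 9 to 23 in the DU145 samples, and VIM, the intermediate filament vimentin, had 4184 to 6679 counts per sample and did not separate the lines. Of 5 epithelial markers, the keratins KRT8 and KRT18 were present (KRT8 with 238 to 307 counts in PC3 and 25835 to 38812 in DU145), CDH1 had 10 counts at most, and EPCAM and KRT19 did not exceed 3. Some markers changed with pentamidine, as VIM rose in both lines (0.33 ± 0.06 with adjusted p = 0.000322 in PC3 and 0.42 ± 0.03 with adjusted p = 2.16e-15 in DU145), and in DU145 cells KRT8 (-0.56 ± 0.03, adjusted p = 1.89e-23) and KRT18 (-0.39 ± 0.03, adjusted p = 1.14e-15) fell. In PC3 cells KRT18 rose (0.35 ± 0.07, adjusted p = 0.000600) and KRT8 was not called (-0.22 ± 0.10, adjusted p = 0.0868), and the interaction was 0.74 ± 0.08 for KRT18 (adjusted p = 2.99e-08) and 0.34 ± 0.08 for KRT8 (adjusted p = 0.00279). Whether this goes with the changes of the members was not tested. The prostate luminal genes KLK3 and KLK2 did not exceed 3 counts. A panel of leukocyte markers, which could bring an interferon program of their own, had a sum of 1 to 9 counts per sample, with CD14 the most abundant and PTPRC and LYZ at 1 count at most. Fibroblast and endothelial markers summed to 4 to 48 counts, most of them from COL1A1.

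The members differed widely in level. Of the 39, 10 did not exceed 3 counts in any of the 12 samples, namely OAS1, OAS2, MX2, BST2, RSAD2, CMPK2, TRIM22, IFI44, IFI44L and EPSTI1. These include the antiviral GTPase MX2, the membrane tether BST2 and the radical SAM enzyme viperin (RSAD2). DHX58, OASL, MX1 and XAF1 exceeded 3 counts somewhere but passed the filter on low counts in neither line. This left 25 members tested in either line, of which 20 were tested in both. Per kb of exon, ISG15 had the highest level in vehicle-treated PC3 cells (21.6 ± 3.25 CPM per kb), followed by OAS3 (14.4 ± 0.102), IFI35 (11.6 ± 1.07) and SAMHD1 (9.92 ± 0.481). In vehicle-treated DU145 cells OAS3 came first (10.2 ± 0.478 CPM per kb), then SAMHD1 (7.97 ± 0.0582), IRF7 (6.05 ± 0.793), DDX58 (5.74 ± 0.485) and STAT2 (5.64 ± 0.147), the last 3 within their spread of each other.

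**Figure D1:**
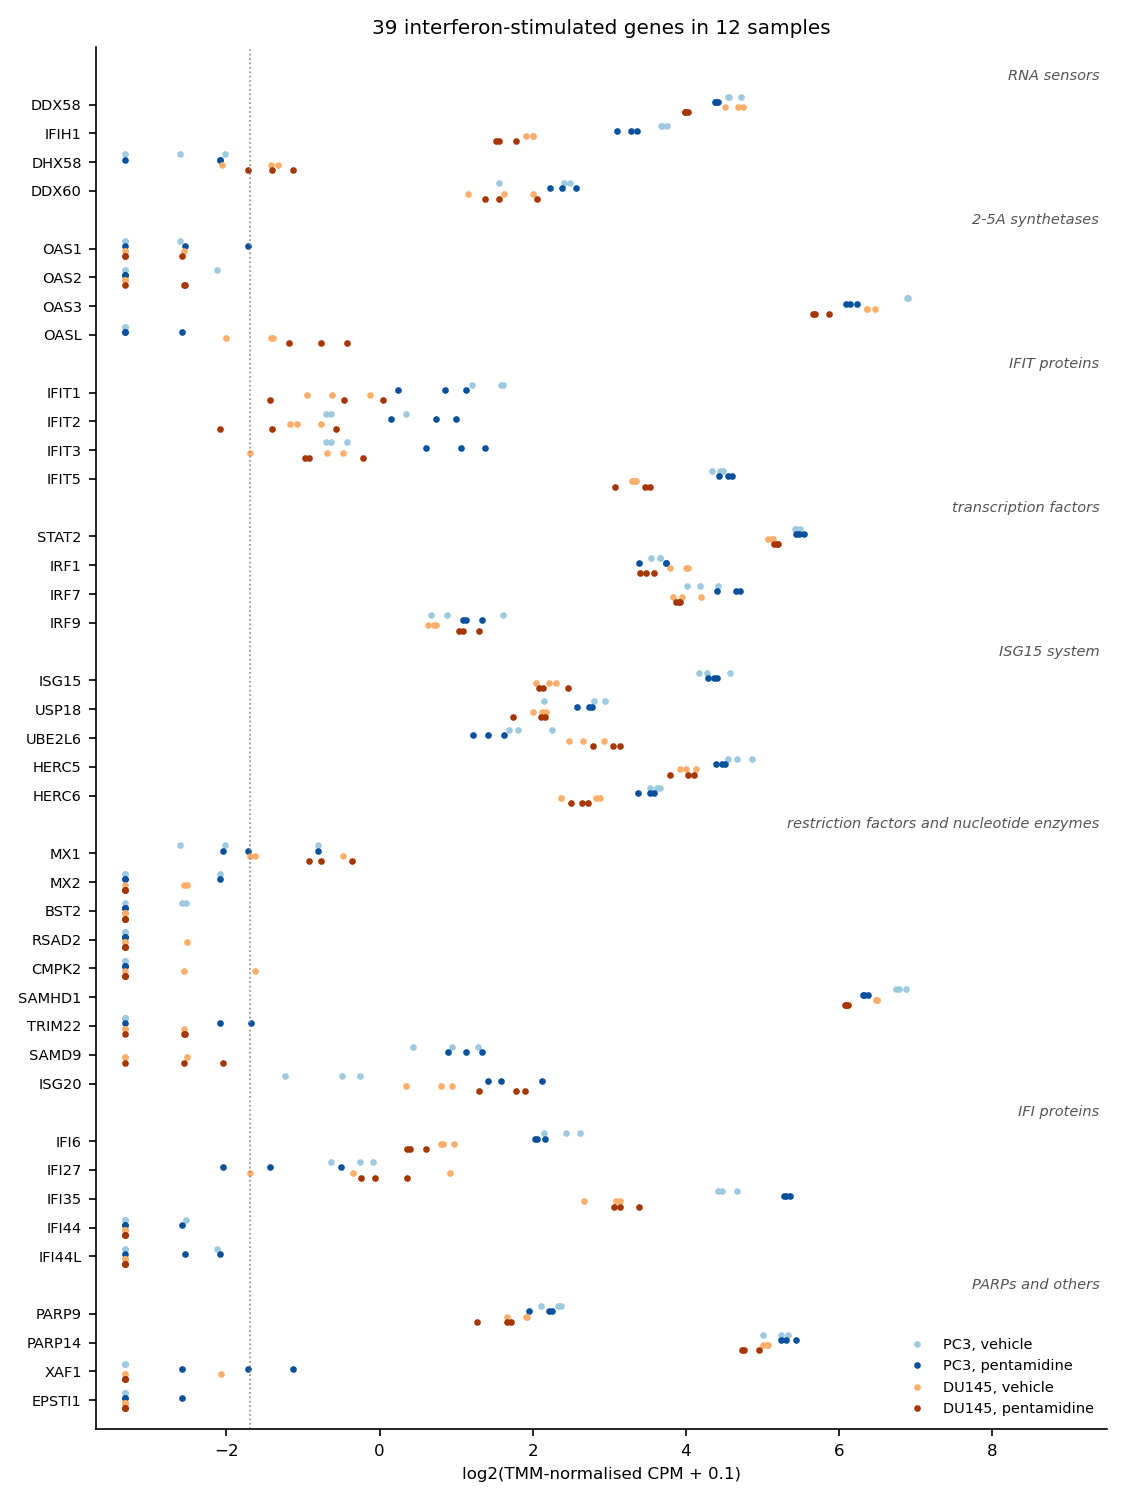
Each row is a member, grouped by role, and each point a sample, on a log2 scale of TMM-normalised CPM with 0.1 added; colours mark the 4 groups and the dotted line is the level of 3 counts. The 10 members at or under 3 counts lie at or left of that line, and OAS3 and SAMHD1 lie furthest to the right.

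In PC3 cells pentamidine did not move the members in a common direction. ISG20, an exonuclease, and IFIT3, an antiviral scaffold protein, rose more than any other tested member, IFI35 and IRF7 rose by less, and OAS3, IFIT1, SAMHD1, IFIH1 and HERC5 fell. Of the 24 members tested, 4 rose (16.7%) at an adjusted p below 0.05, where 21.7% of all 13861 genes tested rose, and 5 fell (20.8%), where 21.7% of all genes fell. Both shares lay near the background and are no result about the members. At the study's threshold 2 members were higher (8.33%), ISG20 and IFIT3, beside 3.44% of all genes. None was lower by edgeR, beside 1.31% of all genes, and the count was also 0 at an unadjusted p below 0.05, by DESeq2 and by limma fits with 1 or 0.1 added to the CPM. The median log2 fold change was 0.02 over the tested members and 0.00457 over all genes. For 21 of the 24 the 95% interval lay wholly below 1, the exceptions being IFIT2, IFIT3 and ISG20.

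The 24 are not all members, and ISG20, IFIT3 and IFIT2 passed the filter through the pentamidine samples, since each had under 10 counts in some vehicle sample. With at least 10 counts required in every sample, these 3 were not tested, and 2 members rose and none passed the study's threshold. The number that fell was 3 without pentamidine replicate 2, without pentamidine replicate 3 and by DESeq2. It was 4 without vehicle replicate 2, by limma on log2(CPM + 0.1) and with the replicate block. With library size alone and with all 12 samples fitted together it was 6. The number that rose was 5 with all 12 samples fitted together and 3 by both limma fits. The number past the threshold was 4 without pentamidine replicate 1, when IFIT2 (1.20) and IFI27 (-1.72, lower) joined, and 1 by limma on log2(CPM + 1). The median became -0.03 without vehicle replicate 1 or vehicle replicate 2 and -0.02 without pentamidine replicate 1 or pentamidine replicate 2. With no filter on low counts 6 members rose and 3 passed the threshold, when IFIT2 was called and XAF1 passed it.

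In DU145 cells 5 of the tested members fell and 1 rose. DDX58, OAS3, IRF1, SAMHD1 and PARP14 fell, each by less than the study's threshold, and ISG20 alone rose. Of the 21 members tested, 1 rose (4.76%), where 17.2% of all 14313 genes tested rose, and 5 fell (23.8%), where 16.8% of all genes fell. Neither share was tested against that of all genes, so that the counts are no result about the members. The number that fell was 4 with library size alone and without vehicle replicate 3, pentamidine replicate 1 or pentamidine replicate 3. It was 6 by limma on log2(CPM + 1). Past the study's threshold 1 member was higher (4.76%), beside 1.37% of all genes, and by edgeR 0 were lower, beside 0.657%, with 0 also at an unadjusted p below 0.05, by DESeq2 and by both limma fits. The median was -0.08 over the tested members and 0.00847 over all genes, and the former, over fits that each lacked 1 sample, lay between -0.12 and -0.02. For 19 of the 21 the 95% interval lay wholly below 1, and IRF9 and ISG20 were the exceptions. A further member, UBE2L6, was called higher without vehicle replicate 3 (0.45) or without pentamidine replicate 3 (0.40), and IRF9 was by both limma fits, so that 2 members rose in each of these. No member passed the threshold without vehicle replicate 3, pentamidine replicate 1 or pentamidine replicate 2, or by limma on log2(CPM + 1), where ISG20 came under it.

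The difference between the responses of the lines was tested by the interaction of treatment and cell line over all 12 samples. Of 25 members tested, 6 had a higher response in PC3 than in DU145 cells (24.0%), where 10.2% of all 15226 genes did, and 1 a lower response (4%), where 10.3% did. The 6 were DDX58, IRF1, IRF7, ISG20, IFI35 and PARP14, and UBE2L6 was the member with the lower response. ISG20 alone was called with a log2 difference above 1 (4%), beside 1.71% of all genes, and by edgeR 0 were called with a difference below -1, beside 0.906%, with 0 also at an unadjusted p below 0.05, by DESeq2 and by both limma fits. ISG20 entered this test through the groups in which it is high, and with at least 10 counts required in every sample it was not tested and 0 members were called with a difference above 1. The median difference was 0.06 over the tested members and -0.0091 over all genes. The count of 6 became 3 without PC3 vehicle replicate 2, PC3 pentamidine replicate 1 or DU145 pentamidine replicate 3, was 3 with library size alone and by limma on log2(CPM + 1), and was 2 by limma on log2(CPM + 0.1). The count of 1 became 0 without PC3 vehicle replicate 2, PC3 pentamidine replicate 1, DU145 vehicle replicate 1, DU145 vehicle replicate 2, DU145 pentamidine replicate 1 or DU145 pentamidine replicate 2. ISG20 kept a difference above 1 but was no longer called without PC3 vehicle replicate 2 (1.26), PC3 pentamidine replicate 1 (1.29) or DU145 vehicle replicate 2 (1.40), where its adjusted p was 0.0661, 0.0541 and 0.0510, in a range of 0.0113 to 0.0661 over the left-out samples and 0.00613 to 0.0666 over the other settings. By limma on log2(CPM + 1) it was not called (0.71). Without DU145 vehicle replicate 2 IFIT3 was called instead (1.88), and it entered this test through the treated PC3 samples.

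**Figure D2:**
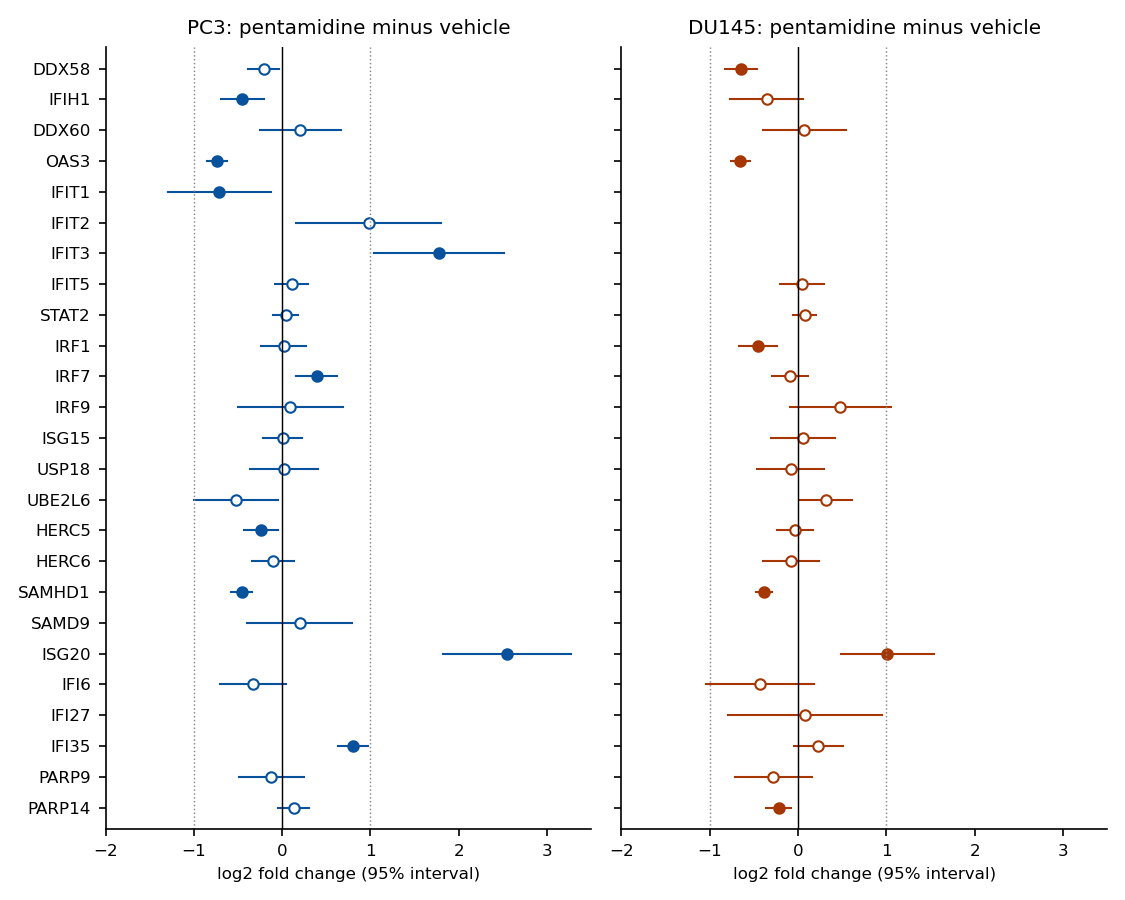
Log2 fold change of each tested member, pentamidine minus vehicle, with its 95% interval, in PC3 (left) and DU145 (right); filled points have an adjusted p below 0.05 and dotted lines mark the study's threshold. ISG20 and IFIT3 lie to the right of the threshold in PC3 cells, and OAS3 and SAMHD1 lie to the left of 0 in both lines.

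Summed over the 39 members, the level went from 516 ± 9.11 CPM with vehicle to 456 ± 5.23 with pentamidine in PC3, and DU145 cells went from 372 ± 5.98 to 305 ± 1.79 CPM. The groups did not overlap in either line, and OAS3 or SAMHD1 was the most abundant member in every sample. Without these 2 genes, left out after their values were seen, the sum went from 285 ± 4.20 to 304 ± 5.05 CPM in PC3, and the DU145 sum from 197 ± 2.14 to 183 ± 2.00 CPM. These sums are descriptions and were not tested. The 13 mRNAs encoded in mitochondrial DNA fell in the same samples, each past the study's threshold in both lines, with log2 fold changes of -5.24 to -2.11 in PC3 and -5.96 to -2.56 in DU145 cells. Their share of all counts was 3.42% ± 0.0723 in vehicle-treated and 0.248% ± 0.00734 in pentamidine-treated PC3 cells, and 3.93% ± 0.11 and 0.209% ± 0.00416 in DU145 cells. Whether this fall has a part in any change of a member was not tested.

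The promoters of the members were searched for the core of the ISRE, which is GAAA, any 2 bases and GAAA again, or TTTC, any 2 bases and TTTC when read from the other strand, and for the GAS element of genes induced by interferon gamma, TTC, any 3 bases and GAA, which reads the same on both strands. RefSeq promoter windows of 300 bases, from 250 before to 50 after the start site, were found for 31 of the 39 members, with DDX58 listed as RIGI. DHX58, OAS2, OASL, IFIT2, IRF7, USP18, MX2 and TRIM22 had no entry. An ISRE core was in a window of 20 of the 31 members (64.5%) and of 1195 of 27305 genes (4.38%), or in 24 of 42 member windows (57.1%) and 1255 of all 35116 windows (3.57%). A GAS match was found for 10 of the 31 (32.3%) and for 9.38% of all genes (7.66% of windows), and 6 members had both. In PC3 cells the ISRE core was present for 2 of the 3 members that rose and had a window, 4 of the 5 that fell and 7 of the 13 not called. In DU145 cells it was present for 1 of 1, 2 of 5 and 8 of 13, and among members at or under 3 counts in every sample for 5 of 7. A match describes letters in a window and does not show a bound site.

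The stretches below surround an ISRE core in the tested members with the largest estimated changes among those that have a match. They were chosen whether called or not, and IFI6 was called by edgeR in neither line. They are shown because this element is what the genes are known to share, and it lay in members that rose as well as in members that fell. Capitals mark the core whose position is given, the IFIT1 stretch holds a further core in lower case at -116 from the start site, and all coordinates are those of GRCh38.p14. Start sites are those of the RefSeq windows and can differ from the gene starts printed with the members, as for OAS3 and IFIT1. The ISG20 stretch is chr15:88638937-88638966 on the plus strand, with the core starting 69 bases before the start site, in sequence that GENCODE 29 annotates as exon of other ISG20 transcripts. That of IFIT3 is chr10:89332415-89332464 (plus strand, 94 bases before, in an intron of longer IFIT3 transcripts and of LIPA), and that of OAS3 is chr12:112938311-112938351 (plus strand, 143 bases before, in an intron of AC004551.1). The IFIT1 stretch is chr10:89392500-89392545 (plus strand, 103 bases before, in an intron of LIPA), the IFIH1 stretch is chr2:162318808-162318839 (minus strand, 153 bases before, between genes), and the IFI6 stretch is chr1:27672256-27672305 (minus strand, 93 bases before, in an intron of AL445490.1).
ISG20: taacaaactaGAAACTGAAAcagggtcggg
IFIT3: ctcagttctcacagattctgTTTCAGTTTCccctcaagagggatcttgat
OAS3: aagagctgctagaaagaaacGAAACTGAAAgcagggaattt
IFIT1: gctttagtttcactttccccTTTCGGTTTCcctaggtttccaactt
IFIH1: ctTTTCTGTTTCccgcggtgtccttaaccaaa
IFI6: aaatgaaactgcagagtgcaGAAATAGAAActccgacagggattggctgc

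**Figure D3:**
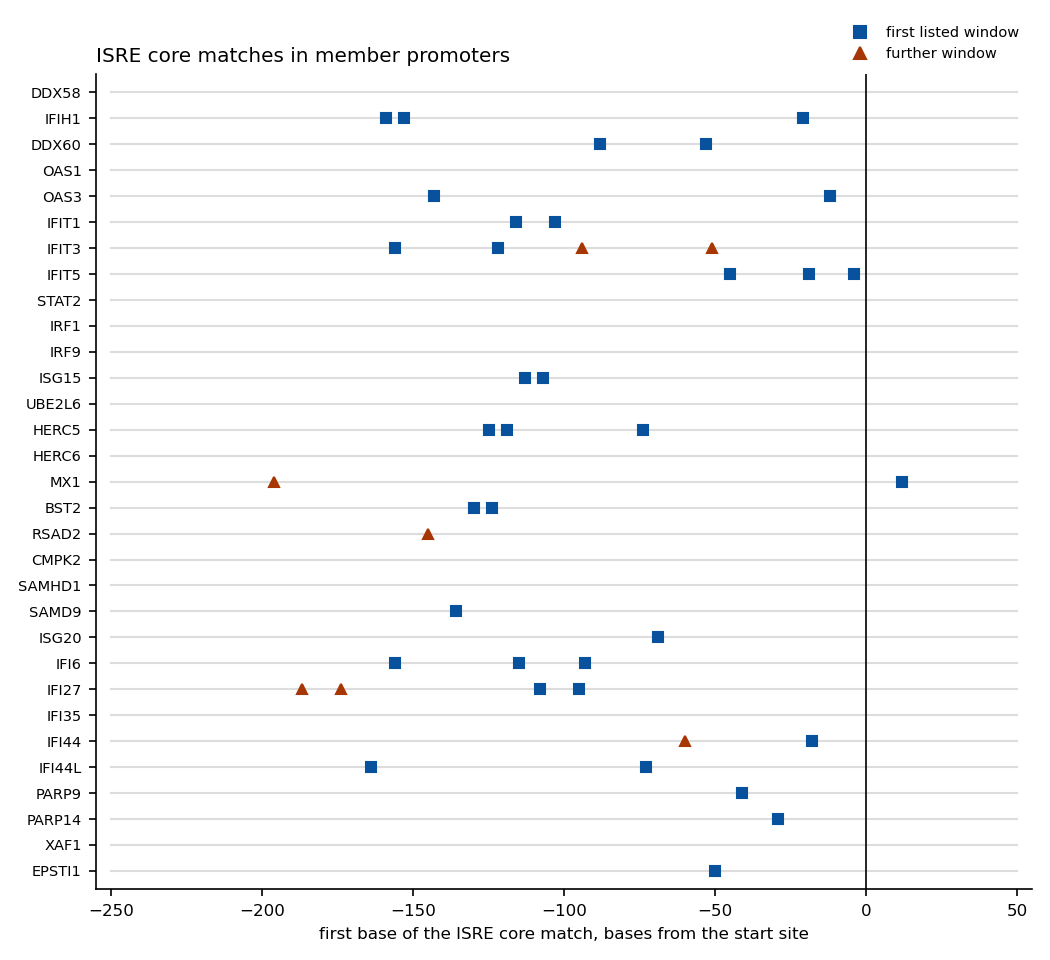
Position of each ISRE core match relative to the RefSeq start site (x axis, bases) in the members with a promoter window (y axis); squares belong to the first window listed for a gene and triangles to further windows. HERC5, IFIH1, IFIT5 and IFI6 hold 3 matches each in their window, and DDX58, STAT2, IRF1 and SAMHD1 hold none.

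The RNA sensors DDX58, IFIH1, DHX58 and DDX60 detect foreign RNA in the cytosol or help to do so. DDX58 (ENSG00000107201, chr9:32455705-32526324, minus strand) encodes RIG-I, which binds RNA with a 5′ triphosphate end. It had 26.2, 23.6 and 23.4 CPM in vehicle-treated PC3 replicates and 21.3, 21.0 and 20.8 in pentamidine-treated ones, against 22.6, 25.5 and 26.8 and 15.8, 15.8 and 16.2 in DU145 cells. The treated samples lay below the vehicle samples in both lines, with a wider gap in DU145 cells. It fell in DU145 cells, with a log2 fold change of -0.64 ± 0.09 (adjusted p = 3.8e-08), and that in PC3 cells was -0.21 ± 0.08 (95% interval -0.39 to -0.03, adjusted p = 0.0534), which crossed to the called side with library size alone, by both limma fits, with all 12 samples fitted together and without PC3 vehicle replicate 3 (0.0491, in a range of 0.0491 to 0.187 over the left-out samples and 0.0372 to 0.127 over the other settings). The responses differed by 0.44 ± 0.12 (adjusted p = 0.00904), and this call held with each of the 12 samples left out. IFIH1 (chr2:162267079-162318703), which encodes MDA5, a sensor of long duplex RNA, fell in PC3 cells by a log2 fold change of -0.45 ± 0.12 (adjusted p = 0.00477). In DU145 cells its log2 fold change was -0.35 ± 0.21 (adjusted p = 0.190), called by limma on log2(CPM + 1) only, and the interaction did not separate the lines (-0.10 ± 0.21, adjusted p = 0.808). The helicase DDX60 was not called in either line (0.21 and 0.07), and DHX58, which encodes LGP2, had 5 counts at most.

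OAS3 was the only oligoadenylate synthetase with enough counts to test. These enzymes make the messenger that activates RNase L, and the genes OAS1, OAS3 and OAS2 lie beside each other on chromosome 12. OAS3 (ENSG00000111331, chr12:112938352-112973249, plus strand) had 119, 119.8 and 118 CPM in vehicle-treated PC3 replicates and 70.6, 67.9 and 75.0 after pentamidine. In DU145 cells the values were 88.9, 82.0 and 82.0 CPM with vehicle and 51.5, 50.3 and 58.5 with pentamidine. Every treated sample lay below every vehicle sample of its line, by more than the spread in either group. The log2 fold change was -0.74 ± 0.06 in PC3 (adjusted p = 1.26e-08) and, in DU145, -0.65 ± 0.05 (adjusted p = 8.09e-15), and the interaction was -0.09 ± 0.08 (95% interval -0.25 to 0.08, adjusted p = 0.516). OAS1 and OAS2 had 3 counts or fewer in every sample. OASL, whose product enhances signalling by RIG-I, had 2, 4 and 4 counts in vehicle-treated and 9, 5 and 7 in pentamidine-treated DU145 replicates and at most 1 in PC3 cells, and was not tested.

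The 4 IFIT genes lie in a cluster on chromosome 10, and their proteins bind viral RNA ends and block translation. IFIT3 (ENSG00000119917, chr10:89327894-89340971, plus strand), a partner that stabilises IFIT1, had 8, 10 and 7 counts in vehicle-treated PC3 replicates and 21, 28 and 37 after pentamidine, or 0.542, 0.647 and 0.516 and 1.42, 1.99 and 2.50 CPM. In DU145 cells it had 7, 3 and 9 counts with vehicle and 6, 6 and 11 with pentamidine, or 0.521, 0.210 and 0.619 and 0.428, 0.407 and 0.764 CPM. The treated PC3 samples all lay above the vehicle samples, whereas the DU145 groups overlapped at a level like that of vehicle-treated PC3 cells. It rose in PC3 cells by a log2 fold change of 1.78 ± 0.35 (adjusted p = 0.000561), from counts near the filter, and the value was 0.90 by limma on log2(CPM + 1). It was not tested in DU145 cells alone. The interaction was 1.53 ± 0.64 (95% interval 0.22 to 2.84, adjusted p = 0.0933), called by limma on log2(CPM + 1) and without DU145 vehicle replicate 2 (1.88). In both tests IFIT3 passed the filter through the treated PC3 samples, with 3 to 11 counts per sample in the other groups. With at least 10 counts required in every sample it was not tested.

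IFIT1 (chr10:89392546-89406486), which binds mRNA lacking cap methylation, moved the other way in PC3 cells, from 2.69 ± 0.421 to 1.63 ± 0.511 CPM. Its log2 fold change was -0.71 ± 0.28 (adjusted p = 0.0455), just past the limit of the test. The adjusted p was 0.0781 without vehicle replicate 1, 0.116 without vehicle replicate 3, 0.0815 without pentamidine replicate 2 and 0.193 without pentamidine replicate 3, in a range of 0.0308 to 0.193 over the left-out samples, and 0.0340 to 0.0943 over the other settings, with the call lost by DESeq2, limma on log2(CPM + 0.1), the replicate block and the fit of all 12 samples. IFIT2 (chr10:89283694-89309276) had 8, 18 and 7 counts with vehicle and 15, 22 and 28 with pentamidine in PC3 cells, where the groups overlapped. Its log2 fold change there was 0.98 ± 0.39 (adjusted p = 0.0504), it was called with no filter and with all 12 samples fitted together, and it passed the study's threshold without vehicle replicate 2 (1.48) or pentamidine replicate 1 (1.20). IFIT2 shares 65 exonic bases with LIPA on the opposite strand, which had 16947 counts over the 12 samples against 129 for IFIT2. No step that marks the strand is named for these libraries and the strand used in counting is not stated, so reads from that overlap cannot be told apart. IFIT5 (ENSG00000152778, chr10:89414586-89421001, plus strand), which binds RNA with a 5′ phosphate, had 22.4, 21.7 and 20.1 CPM in vehicle-treated and 24.1, 23.2 and 21.5 in pentamidine-treated PC3 replicates, and 9.76, 9.94 and 10.1 and 11.4, 8.34 and 11.0 in DU145 cells. The treated and vehicle samples overlapped in both lines, and the PC3 samples lay above the DU145 samples. Its log2 fold change was 0.11 ± 0.09 in PC3 (adjusted p = 0.342) and, in DU145, 0.05 ± 0.12 (adjusted p = 0.814), with an interaction of 0.06.

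Of the transcription factors, STAT2 (ENSG00000170581, chr12:56341597-56360155, minus strand) supplies the activation domain of the complex that binds the ISRE. It had 42.9, 43.3 and 44.7 CPM in vehicle-treated and 46.5, 43.1 and 44.5 in pentamidine-treated PC3 replicates, and 35.2, 33.5 and 34.8 and 36.5, 35.5 and 36.6 in DU145 cells. The PC3 groups overlapped, and the treated DU145 samples lay just above the vehicle samples. The log2 fold change was 0.04 ± 0.07 in PC3 (95% interval -0.10 to 0.18) and 0.08 ± 0.07 in DU145 cells (95% interval -0.06 to 0.21), with adjusted p-values of 0.657 and 0.399. IRF9 (chr14:24161053-24166565), the DNA-binding subunit of that complex, had 21 to 40 counts per sample and was not called by edgeR in either line (log2 fold change 0.09 in PC3 and 0.48 in DU145), though both limma fits called it higher in DU145 cells. It shares 1838 exonic bases with AL136295.5 on the same strand, which had 178 counts over the 12 samples against 339 for IRF9.

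IRF7 (ENSG00000185507, chr11:612553-615999, minus strand), which drives the interferon alpha genes, had 18.2, 16.0 and 21.2 CPM in vehicle-treated and 26.0, 25.1 and 21.1 in pentamidine-treated PC3 replicates. The DU145 values were 18.2, 15.4 and 14.1 CPM with vehicle and 15.1, 14.9 and 14.6 with pentamidine. In PC3 cells 2 of the treated samples lay above every vehicle sample and pentamidine replicate 3 lay level with vehicle replicate 3, whereas the DU145 groups overlapped. It rose in PC3 cells by 0.39 ± 0.11 on the log2 scale (adjusted p = 0.00838), and was -0.09 ± 0.10 in DU145 cells (adjusted p = 0.549). The PC3 call was lost without vehicle replicate 2 (adjusted p = 0.0628) or pentamidine replicate 1 (0.0558) and by both limma fits, in ranges of 0.00171 to 0.0628 and 0.000879 to 0.0700. The interaction was 0.48 ± 0.16 (adjusted p = 0.0284), and its adjusted p rose to 0.0860 without PC3 vehicle replicate 2, 0.0852 without PC3 pentamidine replicate 1, 0.0635 without PC3 pentamidine replicate 2, 0.107 without DU145 vehicle replicate 1, 0.0545 without DU145 pentamidine replicate 2 and 0.0605 without DU145 pentamidine replicate 3, in ranges of 0.00537 to 0.107 over the left-out samples and 0.00972 to 0.139 over the other settings, with the call also lost with library size alone and by both limma fits.

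IRF1 (ENSG00000125347, chr5:132481609-132490798, minus strand), a factor induced mainly by interferon gamma, had 12.5, 11.6 and 12.5 CPM in vehicle-treated and 13.3, 13.3 and 10.4 in pentamidine-treated PC3 replicates, and 13.8, 15.9 and 16.2 and 11.9, 10.4 and 11.0 in DU145 cells. The PC3 groups overlapped, and the treated DU145 samples lay below the vehicle samples. It fell in DU145 cells, with a log2 fold change of -0.46 ± 0.11 (adjusted p = 0.000635), and was 0.02 ± 0.12 in PC3 cells (95% interval -0.24 to 0.27, adjusted p = 0.918). The interaction was 0.47 ± 0.16 (adjusted p = 0.0337). It was lost without PC3 vehicle replicate 2 (adjusted p = 0.0712), PC3 pentamidine replicate 1 (0.0967), PC3 pentamidine replicate 2 (0.0912), DU145 vehicle replicate 2 (0.0703), DU145 vehicle replicate 3 (0.0799), DU145 pentamidine replicate 2 (0.0878) or DU145 pentamidine replicate 3 (0.0629), in ranges of 0.00892 to 0.0967 over the left-out samples and 0.0277 to 0.0978 over the other settings, where library size alone, both limma fits and the replicate block lost it. IRF1 shares 1716 exonic bases with C5orf56 on the opposite strand, which had 190 counts over the 12 samples against 2198 for IRF1.

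The ISG15 system attaches the ubiquitin-like protein ISG15 to other proteins, with UBE2L6 as the conjugating enzyme, HERC5 as the main ligase and USP18 as the protease that removes it. ISG15 (ENSG00000187608, chr1:1001138-1014541, plus strand) itself had 19.2, 18.0 and 23.8 CPM in vehicle-treated and 19.4, 21.1 and 20.5 in pentamidine-treated PC3 replicates. The log2 fold change was 0.01 ± 0.11 (95% interval -0.22 to 0.23, adjusted p = 0.962) in PC3 and 0.06 ± 0.18 (95% interval -0.31 to 0.42, adjusted p = 0.849) in DU145 cells. HERC5 (ENSG00000138646, chr4:88457117-88506163, plus strand) had 29.1, 25.4 and 23.3 CPM in vehicle-treated and 22.1, 22.6 and 20.8 in pentamidine-treated PC3 replicates, and 17.5, 15.0 and 15.9 and 13.8, 16.3 and 17.1 in DU145 cells. The treated PC3 samples lay just below the vehicle samples, and the DU145 groups overlapped. HERC5 fell in PC3 cells by -0.24 ± 0.09 on the log2 scale (adjusted p = 0.0402) and was -0.03 ± 0.10 in DU145 cells, with an interaction of -0.21 ± 0.14 (adjusted p = 0.322). The PC3 call was lost without vehicle replicate 1 (adjusted p = 0.183), vehicle replicate 2 (0.0697), pentamidine replicate 1 (0.0892), pentamidine replicate 2 (0.0617) or pentamidine replicate 3 (0.139), in a range of 0.0133 to 0.183 over the left-out samples, and by DESeq2 and both limma fits, in a range of 0.0319 to 0.0884 over the other settings.

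UBE2L6 (chr11:57551656-57568284) was the tested member of the ISG15 system whose responses differed between the lines. Its PC3 level went from 3.72 ± 0.824 to 2.59 ± 0.380 CPM and its DU145 level from 6.38 ± 1.03 to 7.91 ± 0.988 CPM, and neither change passed on its own (log2 fold change -0.52 ± 0.22 with adjusted p = 0.0695, and 0.31 ± 0.15 with adjusted p = 0.1004). The interaction was -0.84 ± 0.27 (adjusted p = 0.0263). Its adjusted p was 0.121 without PC3 vehicle replicate 2, 0.0791 without PC3 pentamidine replicate 1, 0.0525 without DU145 vehicle replicate 1, 0.0727 without DU145 vehicle replicate 2, 0.0638 without DU145 pentamidine replicate 1 and 0.0536 without DU145 pentamidine replicate 2, in ranges of 0.00773 to 0.121 over the left-out samples and 0.0149 to 0.0412 over the other settings. The PC3 value was called without vehicle replicate 1 (-0.65) and with all 12 samples fitted together, and the DU145 value without vehicle replicate 3 (0.45) or pentamidine replicate 3 (0.40). USP18 and HERC6 were not called in either line, with log2 fold changes between -0.10 and 0.03. USP41, a near copy of USP18, had 2 counts at most where USP18 had up to 112, and how reads shared by the copies were counted is not stated.

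Among the restriction factors and nucleotide enzymes, ISG20 and SAMHD1 changed in both lines and in opposite directions. ISG20 (ENSG00000172183, chr15:88636153-88656483, plus strand), a nuclease that degrades RNA from its 3′ end, had 9, 5 and 10 counts in vehicle-treated PC3 replicates and 63, 36 and 43 after pentamidine, or 0.610, 0.324 and 0.737 and 4.25, 2.56 and 2.90 CPM. In DU145 cells it had 22, 26 and 17 counts with vehicle and 51, 49 and 34 with pentamidine, or 1.64, 1.82 and 1.17 and 3.64, 3.32 and 2.36 CPM. Every treated sample lay above every vehicle sample of its line, and the treated samples of the lines reached a similar level from a lower start in PC3 cells. The log2 fold change was 2.55 ± 0.34 in PC3 cells (adjusted p = 1.26e-05), the largest among the tested members, and, in DU145, 1.01 ± 0.26 (adjusted p = 0.00188). In PC3 cells ISG20 passed the filter through the pentamidine samples. With at least 10 counts required in every sample it was not tested there. The PC3 value ranged from 1.43 to 2.56 over the other settings that tested it. The DU145 value was 0.84 without vehicle replicate 3, 0.88 without pentamidine replicate 1 and 0.95 without pentamidine replicate 2, under the study's threshold though still called. The interaction was 1.53 ± 0.45 (adjusted p = 0.0154).

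SAMHD1 (ENSG00000101347, chr20:36890229-36951843, minus strand), which hydrolyses deoxynucleotides and restrains interferon induction, had 118, 110.0 and 107 CPM in vehicle-treated and 83.3, 79.9 and 79.7 in pentamidine-treated PC3 replicates, and 89.8, 90.4 and 89.1 and 68.1, 69.5 and 67.5 in DU145 cells. The treated samples lay below the vehicle samples in both lines, with gaps wider than the spread of a group. It fell with a log2 fold change of -0.46 ± 0.06 in PC3 (adjusted p = 3.91e-06) and, in DU145, -0.39 ± 0.05 (adjusted p = 1.3e-09), and the interaction was -0.07 ± 0.07 (adjusted p = 0.529). TLDC2 on the opposite strand shares 1159 exonic bases with it and had 99 counts over the 12 samples against 15178 for SAMHD1. SAMD9 (chr7:93099513-93118023), an antiviral factor, was tested in PC3 cells only (0.20 ± 0.28, adjusted p = 0.597). The dynamin-like GTPase MX1, among the genes most often used to read interferon exposure, had 1 to 10 counts per sample and was not tested.

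Of the IFI proteins, IFI35 (ENSG00000068079, chr17:43006725-43014456, plus strand), which regulates RIG-I signalling together with NMI, had 21.3, 22.0 and 25.3 CPM in vehicle-treated and 39.3, 40.9 and 38.9 in pentamidine-treated PC3 replicates. In DU145 cells the values were 8.42, 8.75 and 6.26 CPM with vehicle and 10.4, 8.75 and 8.26 with pentamidine. The treated PC3 samples stood clear above the vehicle samples, and the DU145 groups overlapped. It rose in PC3 cells with a log2 fold change of 0.80 ± 0.08 (adjusted p = 4.74e-07), was 0.23 ± 0.14 in DU145 cells (95% interval -0.05 to 0.51, adjusted p = 0.203), and the interaction was 0.57 ± 0.16 (adjusted p = 0.0101). That adjusted p was 0.0529 without DU145 vehicle replicate 2, in ranges of 0.00164 to 0.0529 over the left-out samples and 0.00328 to 0.0895 over the other settings, with the call also lost by limma on log2(CPM + 0.1). IFI6 (chr1:27666061-27672218), a mitochondrial and endoplasmic reticulum protein, was not called by edgeR in PC3 (-0.33 ± 0.18, adjusted p = 0.146) or DU145 cells (-0.43 ± 0.31, adjusted p = 0.293), though it was called lower in PC3 without vehicle replicate 1 (-0.46) and in DU145 by both limma fits (-0.23 and -0.36). IFI27 (chr14:94104836-94116698) was tested in DU145 cells only (0.08 ± 0.44, adjusted p = 0.913) and had 8, 13 and 10 counts with vehicle and 9, 2 and 4 with pentamidine in PC3 cells.

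PARP14 (ENSG00000173193, chr3:122680618-122730840, plus strand), an ADP-ribosyltransferase, had 37.9, 40.3 and 32.2 CPM in vehicle-treated and 39.5, 37.7 and 43.3 in pentamidine-treated PC3 replicates, and 33.2, 31.9 and 33.6 and 26.5, 30.8 and 27.0 in DU145 cells. The PC3 groups overlapped, and the treated DU145 samples lay below the vehicle samples by a small margin. It fell in DU145 cells, with a log2 fold change of -0.22 ± 0.07 (adjusted p = 0.0144), and was 0.13 ± 0.08 in PC3 cells (adjusted p = 0.233). The DU145 call was lost without vehicle replicate 3 (adjusted p = 0.0573), pentamidine replicate 1 (0.0741) or pentamidine replicate 3 (0.0609), with library size alone and by both limma fits, in ranges of 0.00426 to 0.0741 and 0.0124 to 0.135. The interaction was 0.35 ± 0.12 (adjusted p = 0.0301). It was lost without PC3 vehicle replicate 3 (adjusted p = 0.0777), PC3 pentamidine replicate 3 (0.0952), DU145 vehicle replicate 1 (0.0508), DU145 vehicle replicate 3 (0.0596), DU145 pentamidine replicate 1 (0.0866) or DU145 pentamidine replicate 3 (0.0782), in ranges of 0.0108 to 0.0952 over the left-out samples and 0.0137 to 0.172 over the other settings, where library size alone, both limma fits and the replicate block lost it. PARP9 (chr3:122527924-122564577), an inactive family member that works with the ligase DTX3L, was not called in either line (-0.12 and -0.28), and DTX3L shares 217 exonic bases with it on the opposite strand. DTX3L had 2210 counts over the 12 samples against 666 for PARP9. XAF1 (chr17:6755447-6775647), an apoptosis gene, had 0, 0 and 0 counts with vehicle and 3, 5 and 1 with pentamidine in PC3 cells and was left out by the filter. With no filter it was called higher there, past the threshold (4.65, adjusted p = 0.0426), from these counts, so that the value is no exact fold.

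**Figure D4:**
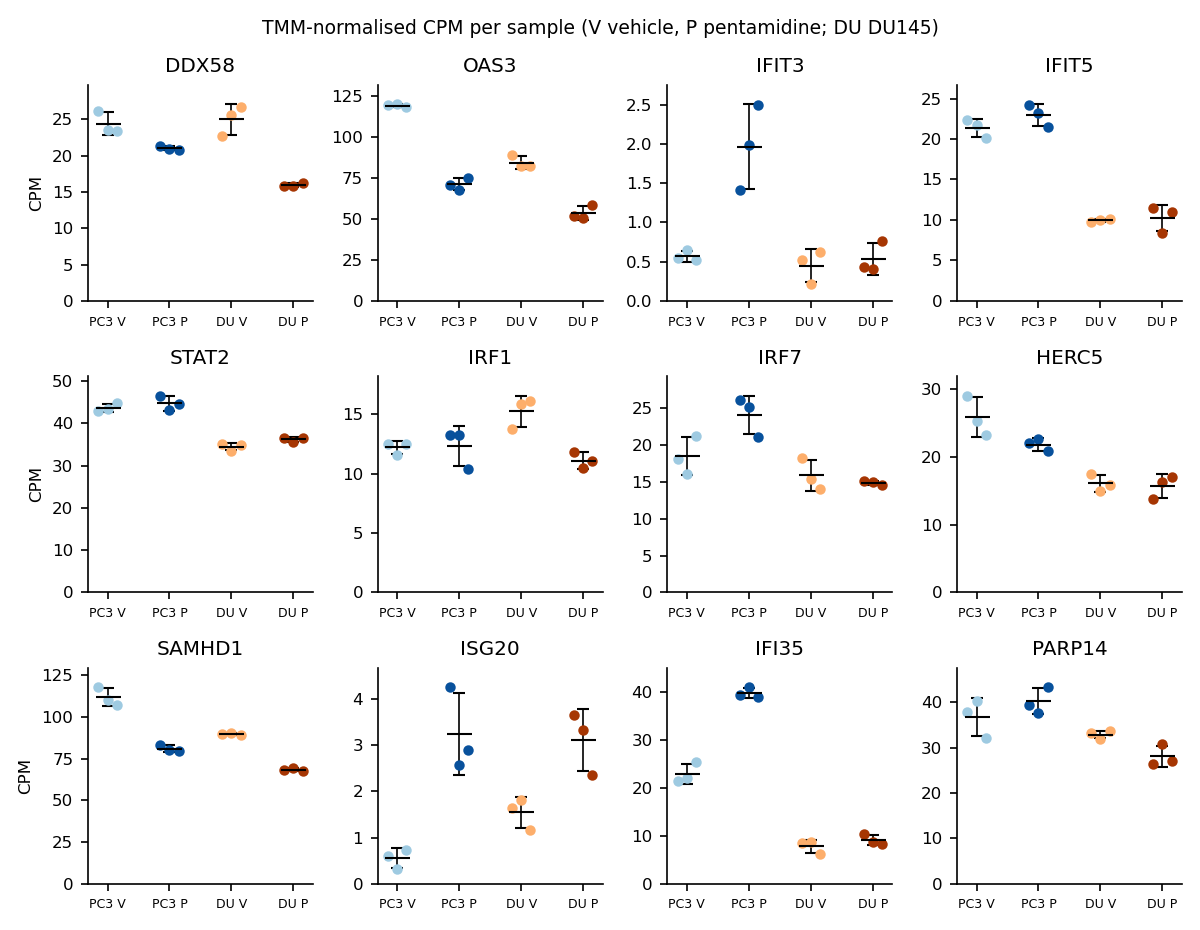
TMM-normalised CPM of the 12 members given in full, with a point per sample and the mean and SD of 3 samples in black; V is vehicle and P pentamidine, and each panel has its own axis from 0. ISG20 is higher after pentamidine in both lines, OAS3 and SAMHD1 are lower in both, and IFI35 and IFIT3 separate the PC3 groups.

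Without pentamidine, more of the tested members were higher in PC3 than in DU145 cells than were lower, and the list as a whole was not tested. The vehicle samples compared here are also the controls of the treatment comparisons. ISG15, IFIT1, IFIH1, IFI6, IFI35 and IFIT5 were higher in PC3 cells with an estimated log2 difference above 1, and ISG20 was lower. For IFIT5 the 95% interval was 0.87 to 1.29. Of 23 members tested, 13 were higher in PC3 (56.5%), where 31.5% of all 14394 genes tested were, and 3 were lower (13%), where 33.8% were. Past the study's threshold 7 were higher (30.4%), beside 7.52% of all genes, and 1 was lower (4.35%), beside 11.7%. The lower member was ISG20 by edgeR, DESeq2 and limma on log2(CPM + 0.1), while limma on log2(CPM + 1) gave 0 (-0.68 for ISG20). Of these members, IFIT1, SAMD9 and ISG20 passed the filter through the line in which they were high. The median log2 difference was 0.47 over the tested members, 0.45 without SAMD9, and -0.0105 over all genes. ISG15 stood at 20.3 ± 3.05 CPM in PC3 and 4.46 ± 0.409 in DU145 cells (2.16 ± 0.14 on the log2 scale, adjusted p = 1.06e-09). The differences of the other members past the threshold were 2.14 ± 0.32 for IFIT1, 1.73 ± 0.13 for IFIH1, 1.57 ± 0.21 for IFI6, 1.53 ± 0.13 for IFI35, 1.08 ± 0.10 for IFIT5 and -1.50 ± 0.38 for ISG20. That of IFIT1 ranged from 1.23 to 2.21 over the other settings that tested it. SAMD9 had 80 counts over the 3 PC3 samples and 1 over the 3 DU145 samples, a ratio of 77.2 (95% counting interval 13.5 to 3086). This interval covers counting error only and leaves out the spread between samples, which was 17 to 36 counts in PC3.

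OAS3, STAT2, USP18, HERC5, HERC6 and SAMHD1 were also higher in PC3 cells, by 0.29 to 0.88 on the log2 scale, and UBE2L6 (-0.80) and IRF1 (-0.35) were lower. USP18 was not called without PC3 vehicle replicate 1 (0.42), PC3 vehicle replicate 2 (0.50) or DU145 vehicle replicate 2 (0.51), or by limma on log2(CPM + 0.1) (0.59). With at least 10 counts in every sample, 5 members were past the threshold. Without PC3 vehicle replicate 2, DDX60 (0.82) and PARP9 (0.51) were called as well, DDX60 (0.79) was without DU145 vehicle replicate 2, and PARP14 (0.24) was without PC3 vehicle replicate 3. These 3 were also called with library size alone, PARP9 also by both limma fits, and with no filter DDX60 was called and OASL was lower past the threshold (-4.81). OASL had 0 counts in every PC3 vehicle sample and 2 to 4 in the DU145 ones, so that its value is no exact fold.

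Of 9 ligand genes, 2 were analysed. IFNA1 had 1 count in 1 of the 12 samples and IFNE, an epithelial interferon, 0 to 14 per sample, so that neither was tested, and IFNA2, IFNB1, IFNK, IFNG and IFNL1 to IFNL3 were not analysed here. Of 6 receptor genes, 2 of the 5 tested in PC3 cells rose and none fell, beside 21.7% and 21.7% of all genes, and 3 of the 6 tested in DU145 cells fell and none rose, beside 16.8% and 17.2%. IFNAR2, the chain of the type I receptor that binds interferon with high affinity, fell in DU145 cells (-0.43 ± 0.08, adjusted p = 5.92e-05) and was -0.18 ± 0.10 in PC3 cells (adjusted p = 0.173). IFNAR1, its partner, fell in DU145 cells (-0.16 ± 0.05, adjusted p = 0.00788) and was -0.13 ± 0.06 in PC3 (adjusted p = 0.105), and neither chain differed in response between the lines by the interaction test (0.25 with adjusted p = 0.198 and 0.03 with adjusted p = 0.855). IFNLR1, the receptor of type III interferon, had 0 to 3 counts in PC3 samples and 54 to 74 in DU145 samples. The interaction was higher for 2 receptor genes of 6 and lower for none (10.2% and 10.3% of all genes), and in the vehicle samples 1 of 6 was higher and 3 lower in PC3 cells (31.5% and 33.8%).

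Of the genes of signalling and feedback, 4 rose and 2 fell of 7 tested in PC3 cells (21.7% and 21.7% of all genes), and 1 rose and 2 fell of 7 in DU145 cells (17.2% and 16.8%). In the interaction 3 were higher and 1 lower of 8 (10.2% and 10.3%), and between the vehicle samples 2 were higher and 3 lower of 7 (31.5% and 33.8%). JAK1, the kinase on the receptor, rose in PC3 (0.25 ± 0.05, adjusted p = 0.000382) and fell in DU145 cells (-0.23 ± 0.03, adjusted p = 3.36e-08), with an interaction of 0.48 ± 0.05 (adjusted p = 1.25e-07).

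Of the genes that sense nucleic acid or relay the signal, 2 rose and 3 fell of 12 tested in PC3 cells, near the 21.7% and 21.7% of all genes, and 1 rose and 6 fell of 11 in DU145 cells, beside 17.2% and 16.8%. In the interaction none was higher and 1 was lower of 12 (10.2% and 10.3%), and between the vehicle samples 3 were higher and 6 lower in PC3 cells of 12 (31.5% and 33.8%). CGAS, the sensor of cytosolic DNA, was not called (-0.05 ± 0.06 with adjusted p = 0.592 in PC3 and -0.08 ± 0.07 with adjusted p = 0.389 in DU145), and its adaptor STING1, listed as TMEM173, had 0 to 7 counts per sample. MAVS, the adaptor of RIG-I and MDA5 on mitochondria, rose in both lines (0.20 ± 0.05 with adjusted p = 0.00328 and 0.23 ± 0.04 with adjusted p = 1.13e-05). PNPT1, which degrades mitochondrial RNA and keeps its duplexes from the cytosol, fell in both lines (-0.34 ± 0.06 with adjusted p = 0.000112 and -0.30 ± 0.04 with adjusted p = 6.74e-08). EIF2AK2, the RNA-activated kinase PKR, also fell in both (-0.36 ± 0.07 with adjusted p = 0.000569 and -0.12 ± 0.04 with adjusted p = 0.0157). IFI16, a DNA sensor, rose in PC3 cells from 19, 11 and 12 to 28, 24 and 27 counts (0.91 ± 0.31, adjusted p = 0.0247) and had 2 counts at most in DU145 cells. TLR9 and TREX1 were not analysed here.

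**Figure D5:**
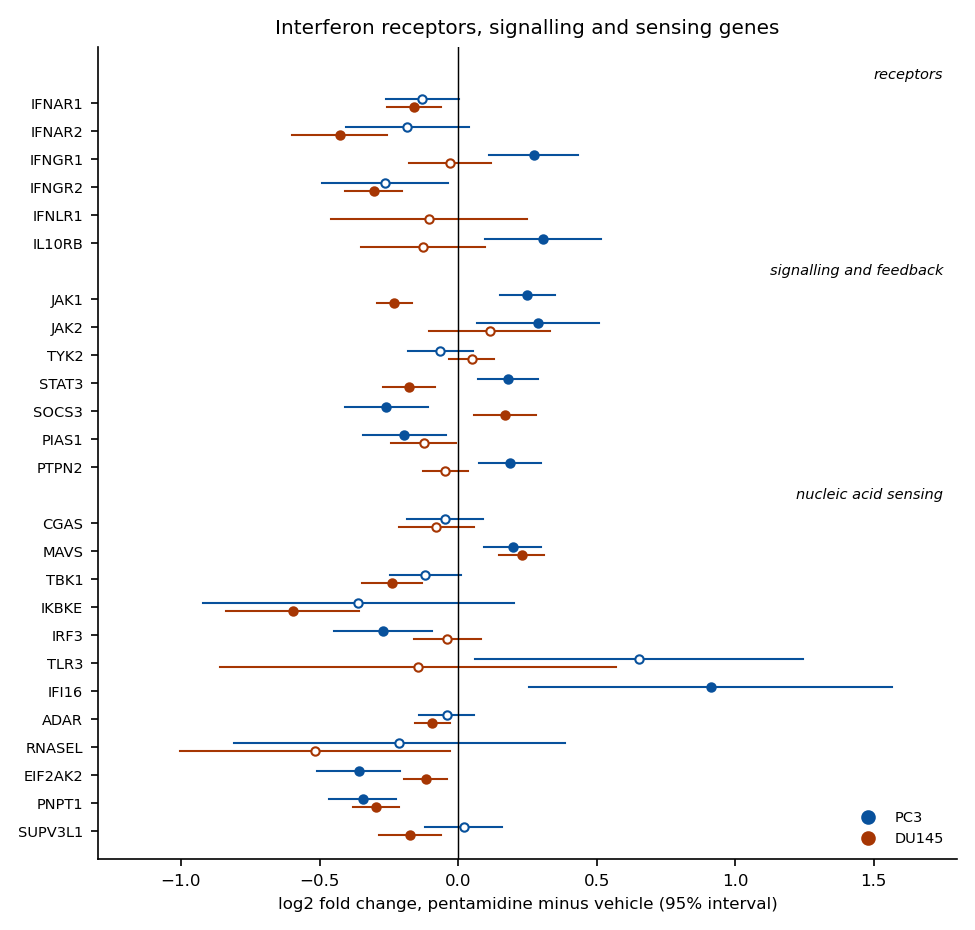
Log2 fold changes, pentamidine minus vehicle, with 95% intervals for the tested genes of the receptor, signalling and sensing lists in PC3 (blue) and DU145 (brown), filled where the adjusted p is below 0.05. None of these genes passed the study's threshold in either line, and JAK1, STAT3 and SOCS3 changed in opposite directions in the lines.

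Among 37 further interferon-induced genes outside the members, of which 36 were analysed, 10 rose and 4 fell of 27 tested in PC3 cells (21.7% and 21.7% of all genes), and 2 rose and 11 fell of 24 in DU145 cells (17.2% and 16.8%), with medians of 0.14 and -0.14. In the interaction 7 were higher and 1 lower of 28 (10.2% and 10.3%), and between the vehicle samples 14 were higher and 8 lower in PC3 cells of 28 (31.5% and 33.8%). TRIM25 and LGALS3BP passed the study's threshold in PC3 cells. TRIM25, the ubiquitin ligase that helps to activate RIG-I, had 1673, 1728 and 1531 counts with vehicle and 3421, 3356 and 3626 with pentamidine in PC3 cells (1.08 ± 0.05, adjusted p = 1.35e-11), fell in DU145 cells (-0.18 ± 0.04, adjusted p = 0.000113) and differed between the lines (1.26 ± 0.06, adjusted p = 4.9e-15). LGALS3BP, a secreted glycoprotein, rose in PC3 cells from 137, 153 and 112 to 323, 253 and 285 counts (1.11 ± 0.12, adjusted p = 6.66e-07) and was 0.62 ± 0.36 in DU145 cells (adjusted p = 0.184), with an interaction of 0.48 (adjusted p = 0.375). The chemokine genes CXCL10, CXCL11 and CCL5, which interferon induces strongly in many cell types, did not exceed 2 counts in any sample, and RTP4 was not analysed here.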

How the data were processed

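RNA-seq of 12 samples was used, with groups and replicates taken from the labels and none left out. The authors aligned reads to GRCh38 with HISAT2 2.1.0 and deposited a table of counts, integer read numbers per gene that had not been normalised, for which the counting program, annotation and strand are not stated. A further deposited table, named by the authors for FPKM, holds CPM, since 100% of 384876 values equalled the count scaled to the library total within 1 part in 100000. It was used only for this check. The deposited comparison tables, which hold the authors' fold changes and p-values from DESeq 1.18.1, were not used. Of 33639 lines, 44 without an Ensembl identifier were dropped, and entries that repeated a name with equal counts (137 names were listed more than once) were merged, which left 32077 genes. Coordinates are those of the table, on GRCh38, and 37 of the 39 members had the same start and end in GENCODE 29. Exon lengths and overlaps came from that annotation.

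Tests used edgeR 4.0.16 in R 4.3.3 (glmQLFit and glmQLFTest, TMM, filterByExpr at a minimum count of 10) with Benjamini-Hochberg adjustment over all genes tested. Each line was fitted on its own 6 samples, as were the vehicle samples, and the interaction on all 12. Standard errors are the absolute log2 fold change divided by the square root of F, and intervals are at 95%. Members were named in full if past the study's threshold in a treatment comparison or the interaction, or called in both lines, and then by highest mean CPM until there were 12. Alternatives were DESeq2 1.42.0, RLE, library size alone, TMM without mitochondria-encoded genes, no filter, at least 10 counts in every sample, limma 3.58.1 on log2(CPM + 1) and log2(CPM + 0.1), the replicate number as a block, all 12 samples in 1 fit and each sample left out. The scaling alternatives moved the median of all genes by less than 0.1. The members and all lists (ligands, receptors, signalling and feedback, nucleic acid sensing, other interferon-induced genes, mitochondria-encoded mRNAs and markers) were chosen with earlier results of these data known, and 3 genes planned for the signalling, interferon-induced and marker lists were left out after a first run because they are not analysed here. Promoters are RefSeq windows on GRCh38.p14, searched for exact motif matches with Python 3.11.15. The code was tested on simulated data.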

Additional observations from a re-analysis of the deposited data

Results flagged for a closer look

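The response to pentamidine differed between PC3 and DU145 cells for 7 of 25 members by the interaction test, 6 higher and 1 lower, beside 10.2% higher and 10.3% lower of all genes. The 6 became 3 without PC3 vehicle replicate 2, PC3 pentamidine replicate 1 or DU145 pentamidine replicate 3, with library size alone and by limma on log2(CPM + 1), and 2 by limma on log2(CPM + 0.1), and the 1 became 0 without PC3 vehicle replicate 2, PC3 pentamidine replicate 1, DU145 vehicle replicate 1 or 2, or DU145 pentamidine replicate 1 or 2. Each value below is the log2 fold change in PC3 minus that in DU145 cells with its standard error and adjusted p (edgeR, Benjamini-Hochberg). It was 1.53 ± 0.45 for ISG20 (adjusted p = 0.0154), which rose in both lines and is not tested when at least 10 counts are required in every sample. IFI35, called in PC3 cells alone, had a difference of 0.57 ± 0.16 (adjusted p = 0.0101), and IRF7, likewise, of 0.48 ± 0.16 (adjusted p = 0.0284). For DDX58, called lower in DU145 cells and at the edge of the test in PC3 cells (adjusted p = 0.0534, called lower under 4 other settings), it was 0.44 ± 0.12 (adjusted p = 0.00904), for IRF1 0.47 ± 0.16 (adjusted p = 0.0337) and for PARP14 0.35 ± 0.12 (adjusted p = 0.0301), the latter pair called lower in DU145 cells alone. UBE2L6, called in neither line by edgeR, had the only negative value, -0.84 ± 0.27 (adjusted p = 0.0263). Of the 7, DDX58 kept its call with each of the 12 samples left out in turn.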

How the results depend on the processing

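For the 12 members given in full in each comparison that tested them, and for other members only in a comparison that called them, over all alternative fits including those that leave out a sample, no direction of a called result was reversed, and of 950 comparisons with the value reported 869 stayed on the same side of the test, 72 lost a call and 9 gained one. Of the 38 calls of a member in a comparison, 27 were kept with each sample left out in turn and 28 under every other setting that tested them. The cause of the shifts below was not tested, except where fewer genes were tested.

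With at least 10 counts in every sample, which leaves fewer members tested, 2 members rose in PC3 cells, 0 passed the study's threshold there and 0 in the interaction, and 5 passed it between the vehicle samples. By DESeq2 3 members fell in PC3 cells. By limma on log2(CPM + 1) 1 member passed the threshold in PC3, 0 in DU145 and 0 in the interaction, 2 rose in DU145 cells, 3 were higher in the interaction, and the DU145 median was -0.0193. By limma on log2(CPM + 0.1) 2 rose in DU145 cells, 2 were higher in the interaction, and the DU145 median was -0.0202. With library size alone 3 were higher in the interaction and the DU145 median was -0.0314, with no filter on low counts it was -0.0264, and with all 12 samples in 1 fit it was -0.0365.

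With each sample left out in turn, 4 members rose and 3 to 5 fell in PC3 cells, 2 to 4 passed the threshold and the median lay between -0.0348 and 0.0465. In DU145 cells 1 to 2 rose, 4 to 5 fell, 0 to 1 passed the threshold and the median lay between -0.12 and -0.0181. In the interaction 3 to 6 were higher, 0 to 1 lower and 0 to 1 past the threshold, and between the vehicle samples 12 to 14 were higher, 3 lower and 8 past the threshold. The deviations of equally numbered replicates correlated across genes at -0.0733 to 0.0388, and those of differently numbered ones at -0.0811 to 0.0847. Whether equally numbered samples were handled together is not stated, and these correlations cannot decide it. With the replicate number as a block 4 members rose and 4 fell in PC3 cells, and 1 rose and 5 fell in DU145 cells. With this block 4 were higher and 1 lower in the interaction, and 13 were higher and 3 lower between the vehicle samples. The filter left 14 members untested in both lines, and without it XAF1 was called in PC3 cells (4.65) and OASL between the vehicle samples (-4.81). Each of these values is over a group at 0 counts and is no exact fold.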
